A study of Homo sapiens with 12 samples.

Results

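The 10 genes described here are the core of the mammalian circadian clock and its nearest regulators: PER1, PER2, PER3, CRY1, CRY2, CLOCK, BMAL1, NR1D1, NR1D2 and DBP. They were chosen by gene symbol, taking every probe set that the array annotation pairs with 1 of them, which gave 25 of 54613 probe sets. The list was drawn up with differences between the treatments in view, PER2 foremost, so those differences are given as a description, without p-values. Of the 25 probe sets, 18 are paired with 1 symbol and stand for 8 genes of the 19775 measured in this way. The other 7 are paired with 2 symbols: 4 with PER1 and MIR6883, and 3 with NR1D1 and THRA, the thyroid hormone receptor gene that overlaps NR1D1 on the opposite strand. PER1 and NR1D1 have no probe set of their own here, and their values are given by probe set.

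In the clock, the transcription factors CLOCK and BMAL1 bind E-box elements and switch on the PER and CRY genes, whose protein products enter the nucleus and repress CLOCK and BMAL1 in turn. A second loop runs through the nuclear receptors NR1D1 and NR1D2 (REV-ERB alpha and beta), which are driven by CLOCK and BMAL1 and repress BMAL1, and DBP is an output factor that acts on D-box elements. PER1 and PER2 also respond within hours to growth factors, cAMP and glucocorticoids, through routes that include CREB, and ERK signalling is among the inputs known to reset the clock.

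The cells were INA-6, a human myeloma line that depends on interleukin-6, grown in 10% serum with 2 ng/ml interleukin-6, which all groups received. The groups were the Raf inhibitor SB590885 (4 arrays), the MEK inhibitor PD325901 (4 arrays) and the solvent DMSO (4 arrays). Raf activates MEK and MEK activates ERK. Doses, treatment times and the time of day of harvest were not known here, and the values of the compounds are those of the treatments as applied. INA-6 is 1 cell line. The arrays of a group are biological replicates according to the design text. The p-values of the treatment comparisons rest on the spread between them. Where the replicate number is a term of the fit, they rest on the spread left after it is taken out. In bulk RNA, fewer cells expressing a gene and less RNA per cell cannot be told apart.

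Each value is a log2 expression level after RMA, so a difference of 1 is a factor of 2 in intensity, and levels are compared between arrays and not between probe sets. The arrays of each group are numbered 1 to 4, and same-numbered arrays of different groups deviated together, with correlations of 0.544 to 0.913 over 12 pairs. Between arrays of different numbers they were 0.123 to 0.646 over the 12 pairs within a set of equal R mark and -0.718 to -0.443 over the 24 pairs across sets. A second label adds an R to numbers 3 and 4, and no source used here explains it. The 6 R-marked arrays had a narrower spread over probe sets, with SDs of 1.38 to 1.45, than the 6 unmarked arrays, with 1.52 to 1.55, while all array medians lay between 6.88 and 6.97. The plasma cell markers fixed for this cell type were all above 6.92, the median over all probe sets, in 10 of 10 genes in every group, led by JCHAIN. Monocyte and macrophage markers were below it in all 10 genes. The other lists were mixed. At or above it were 3 of 5 B cell, 4 or 5 of 10 T and NK cell and 4 of 8 fibroblast markers, depending on the group. So were 1 of 5 endothelial, 2 or 3 of 3 erythroid and 1 or 2 of 8 tissue-restricted markers, PECAM1 and HBB among them. This level therefore did not separate plasma cell markers from all others. The log2 difference between the 3′ and 5′ GAPDH control probe sets, a measure of RNA integrity, was 0.44 ± 0.04 with SB590885, 0.43 ± 0.06 with PD325901 and 0.37 ± 0.03 with DMSO (SD, n = 4 each). For ACTB it was larger, at 1.65 ± 0.17, 1.64 ± 0.10 and 1.58 ± 0.17 in the same order. The part of RNA integrity in the results was not tested.

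To show the regulatory sequence in front of the members, their promoters were taken from RefSeq on GRCh38.p14, as windows of 300 bases with 250 before and 50 after an annotated start. All 10 genes matched, with 15 windows. The 4 windows below belong to the members with the largest differences from DMSO. They are written 5′ to 3′ on the gene's strand in lower case, with capitals on the motifs searched on both strands: the E-box CACGTG and its variant CACGTT, the D-box TTATGTAA or TTATGCAA, the ROR element TAGGTCA, the cAMP response element TGACGTCA, and TGACG, its core.
PER2 promoter, chr2:238288561-238288860, minus strand: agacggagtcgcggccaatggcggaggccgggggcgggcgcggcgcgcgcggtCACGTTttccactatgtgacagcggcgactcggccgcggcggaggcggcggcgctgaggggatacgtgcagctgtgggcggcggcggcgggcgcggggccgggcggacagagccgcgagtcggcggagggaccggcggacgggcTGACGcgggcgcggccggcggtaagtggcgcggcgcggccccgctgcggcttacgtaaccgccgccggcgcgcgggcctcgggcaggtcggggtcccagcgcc
NR1D2 promoter, chr3:23945871-23946170, plus strand: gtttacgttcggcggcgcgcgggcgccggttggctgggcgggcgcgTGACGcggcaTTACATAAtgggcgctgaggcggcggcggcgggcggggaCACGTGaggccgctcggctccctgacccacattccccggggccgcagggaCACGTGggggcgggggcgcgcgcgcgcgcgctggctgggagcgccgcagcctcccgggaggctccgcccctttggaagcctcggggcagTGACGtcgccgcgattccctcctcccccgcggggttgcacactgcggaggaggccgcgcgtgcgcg
CRY1 promoter, chr12:107093500-107093799, minus strand: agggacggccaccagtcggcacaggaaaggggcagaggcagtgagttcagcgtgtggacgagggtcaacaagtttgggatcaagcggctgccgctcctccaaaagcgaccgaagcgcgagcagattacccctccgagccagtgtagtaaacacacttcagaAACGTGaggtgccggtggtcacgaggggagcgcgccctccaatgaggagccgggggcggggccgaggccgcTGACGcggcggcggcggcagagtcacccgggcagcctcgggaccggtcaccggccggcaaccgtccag
DBP promoter, chr19:48637330-48637629, minus strand: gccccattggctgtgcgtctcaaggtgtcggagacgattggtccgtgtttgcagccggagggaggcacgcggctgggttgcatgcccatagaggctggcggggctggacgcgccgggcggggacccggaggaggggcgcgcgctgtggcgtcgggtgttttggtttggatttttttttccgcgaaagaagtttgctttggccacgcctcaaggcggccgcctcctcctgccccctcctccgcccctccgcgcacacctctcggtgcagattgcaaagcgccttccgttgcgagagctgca

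In the PER2 window the script found CACGTT at position -197 and TGACG at position -53, counted from the annotated start. The NR1D2 window printed above held CACGTG at positions -155 and -105, a D-box read on the other strand at -194 as TTACATAA, and TGACG at -204 and -16. NR1D2 has another window, chr3:23945036-23945335, which is not printed. Of the motifs searched it held only TGACG, read on the other strand at -1, and no E-box or D-box. CRY1 had the variant E-box on the other strand, as AACGTG at -89, and TGACG at -18. None of these letters occur in the DBP window. Over all member windows, 7 of 15 (46.7%) held CACGTG or CACGTT, against 12.2% of 35116 windows of the table. CACGTG alone was in 2 of 15 (13.3%), against 7.26% of all windows. The D-box was in 3 of 15 (20.0%), for PER1, PER3 and NR1D2, against 1.71% of all, and the ROR element was in 2 of 15 (13.3%), for CRY2 and BMAL1, against 1.85% of all. TGACG was in 7 of 15 (46.7%), against 24.6% of all, and the full TGACGTCA was in 0 of 15, against 1.85% of all. These are matches of letters, no binding was measured, and windows of 1 gene can overlap.

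PER2, a period gene, differed most between the treatments of the 8 genes. Its probe set 205251_at read 8.91, 9.07, 8.90 and 8.79 on arrays 1 to 4 with SB590885. With PD325901 it read 8.48, 8.47, 8.004 and 7.99, and with DMSO 9.80, 9.67, 9.41 and 9.45. The groups did not overlap in any pair of treatments, with PD325901 lowest, SB590885 between and DMSO highest. Means were 8.92 ± 0.12 with SB590885, 8.24 ± 0.28 with PD325901 and 9.58 ± 0.18 with DMSO (SD, n = 4 each). PER2 was lower with SB590885 than with DMSO by a log2 difference of -0.66 (SE 0.13), or 0.632 times the DMSO intensity. With PD325901 the difference was -1.34 (SE 0.13), or 0.394 times the DMSO intensity. Set against PD325901, SB590885 was higher by 0.68 (SE 0.13), a ratio of 1.60.

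Within replicate numbers PER2 kept these directions in 4 of 4 numbers for each comparison. SB590885 minus DMSO ran between -0.89 and -0.51, PD325901 minus DMSO between -1.46 and -1.19, and SB590885 minus PD325901 between 0.43 and 0.90. The 2 comparisons with DMSO share its arrays. The second PER2 probe set, 208518_s_at, read 6.50 to 6.57 with SB590885, 6.40 to 6.64 with PD325901 and 6.58 to 6.66 with DMSO. Its differences were -0.08 for SB590885 and -0.09 for PD325901 against DMSO (SE 0.05 each). The 2 PER2 probe sets thus had the same direction against DMSO and disagreed in size. 208518_s_at averaged 6.55 over the 12 arrays, below 6.92, the median over all probe sets, and the part of this low level was not tested.

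**Figure D1:**
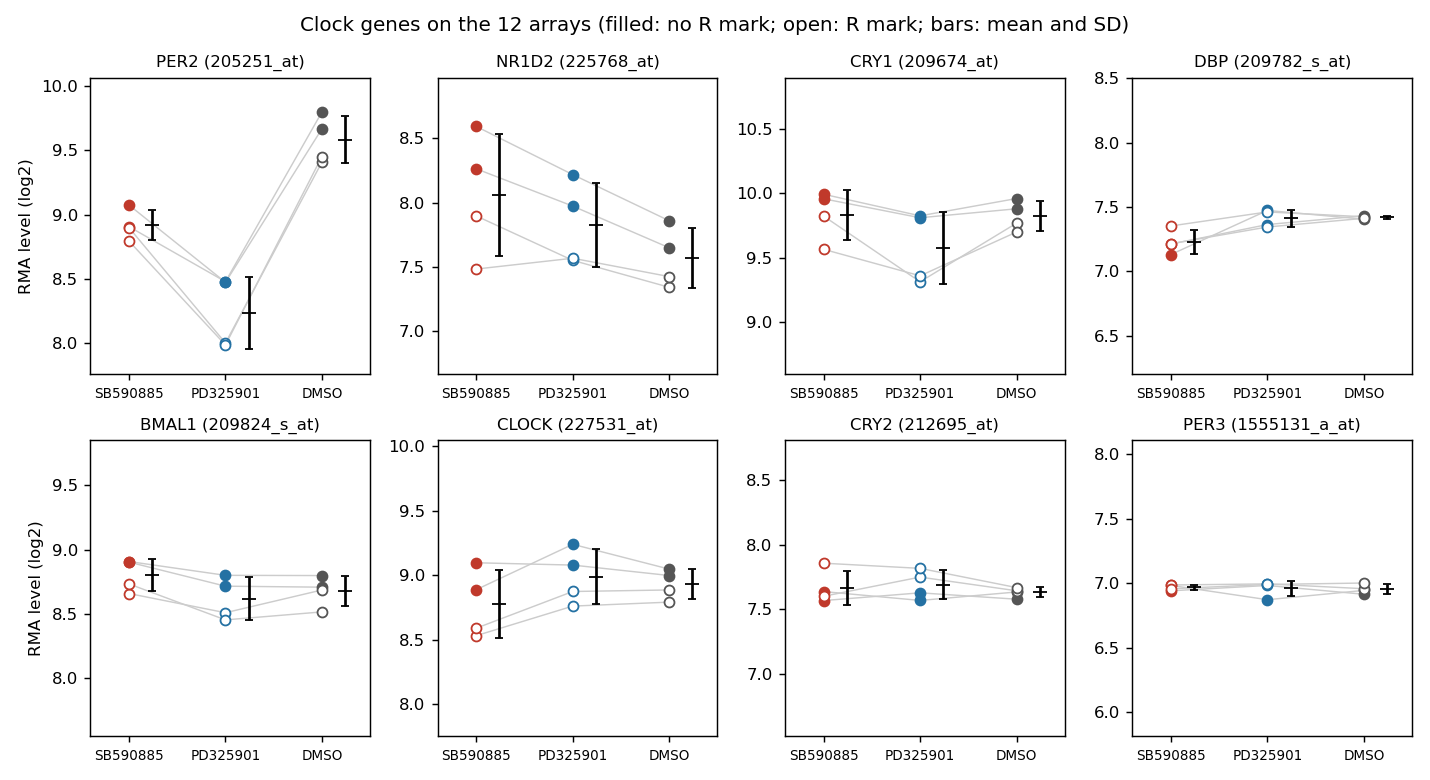
RMA level (log2) of the 8 clock genes with a probe set of their own, by treatment: each point is 1 array, filled without and open with the R mark, grey lines join arrays of 1 number, and bars give mean and SD of 4 arrays. PER2 lies in 3 separate groups, at 8.79 to 9.07 with SB590885, 7.99 to 8.48 with PD325901 and 9.41 to 9.80 with DMSO, while the groups of NR1D2 overlap.

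PER3, the period gene least needed for the rhythm in mouse, was flat. On its probe set of highest mean, 1555131_a_at, arrays read 6.94 to 6.99 with SB590885, 6.87 to 6.99 with PD325901 and 6.91 to 7.00 with DMSO. Both differences from DMSO were 0.01 (SE 0.04). The other 3 PER3 probe sets lay between 6.02 and 6.55 on every array. Whether PER3 was expressed was not tested.

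The 4 probe sets paired with both PER1 and MIR6883, a microRNA gene inside PER1, also differed little between groups. On 36829_at, the one of highest mean, values ran from a lowest of 7.58 to a highest of 7.77 with SB590885, with 7.65 to 7.75 for PD325901 and 7.68 to 7.80 for DMSO. Over the 4 probe sets, SB590885 minus DMSO lay between -0.04 and 0.04 and PD325901 minus DMSO between -0.03 and 0.08, each with an SE of 0.04 or 0.05. On each of the 4 the groups overlapped.

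CRY1 and CRY2 encode the cryptochromes, the partners of the PER proteins in repression. CRY1 on 209674_at read 9.99, 9.96, 9.82 and 9.56 with SB590885, 9.82, 9.81, 9.31 and 9.36 with PD325901, and 9.96, 9.88, 9.77 and 9.70 with DMSO. PD325901 minus DMSO within a number lay between -0.46 and -0.07, lower in 4 of 4, although the groups overlap. The mean differences were 0.01 for SB590885 and -0.25 for PD325901 against DMSO, and 0.26 for SB590885 against PD325901 (SE 0.13 each). CRY2 on 212695_at read 7.57 to 7.86 with SB590885, 7.57 to 7.82 with PD325901 and 7.58 to 7.67 with DMSO, and its differences from DMSO were 0.03 and 0.06 (SE 0.07 each).

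CLOCK and BMAL1 form the activating pair. CLOCK on 227531_at read 8.89, 9.10, 8.53 and 8.59 with SB590885, 9.24, 9.08, 8.76 and 8.87 with PD325901, and 9.05, 8.997, 8.79 and 8.89 with DMSO. All 3 groups overlap, and in each the R-marked arrays 3 and 4 were the lower ones. The CLOCK difference was -0.15 for SB590885 and 0.06 for PD325901 against DMSO, and -0.21 for SB590885 against PD325901 (SE 0.13 each). On its other 3 probe sets the differences from DMSO lay between -0.07 and 0.07.

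BMAL1 on 209824_s_at read 8.90, 8.91, 8.66 and 8.73 with SB590885, 8.72, 8.80, 8.51 and 8.45 with PD325901, and 8.71, 8.80, 8.69 and 8.52 with DMSO. SB590885 was above PD325901 in 4 of 4 numbers, by 0.11 to 0.28, while the groups as a whole overlap. The differences were 0.12 for SB590885 and -0.06 for PD325901 against DMSO, and 0.18 for SB590885 against PD325901 (SE 0.09 each). The second BMAL1 probe set, 210971_s_at, gave 0.00 and -0.05 against DMSO (SE 0.08).

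NR1D2, the REV-ERB beta receptor that represses BMAL1, had the largest positive differences from DMSO. On 225768_at it read 8.26, 8.59, 7.90 and 7.48 with SB590885, 7.97, 8.22, 7.55 and 7.57 with PD325901, and 7.65, 7.86, 7.34 and 7.43 with DMSO. Each treated array was above the DMSO array of its number, in 4 of 4 numbers for both compounds, while the groups as a whole overlap. Against DMSO the mean difference was 0.49 for SB590885 and 0.26 for PD325901 (SE 0.22 each, or 0.08 with the replicate number as a block). Leaving out 1 array at a time gave 0.31 to 0.68 and 0.13 to 0.36, with the lowest of both without array 2 of the compound. Array 4 with SB590885 was only 0.06 above its DMSO partner, while the other 3 were 0.55 to 0.73 above theirs. On the second probe set, 209750_at, which lay at 6.54 to 7.12, the differences were 0.18 and 0.13 (SE 0.13 each).

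**Figure D2:**
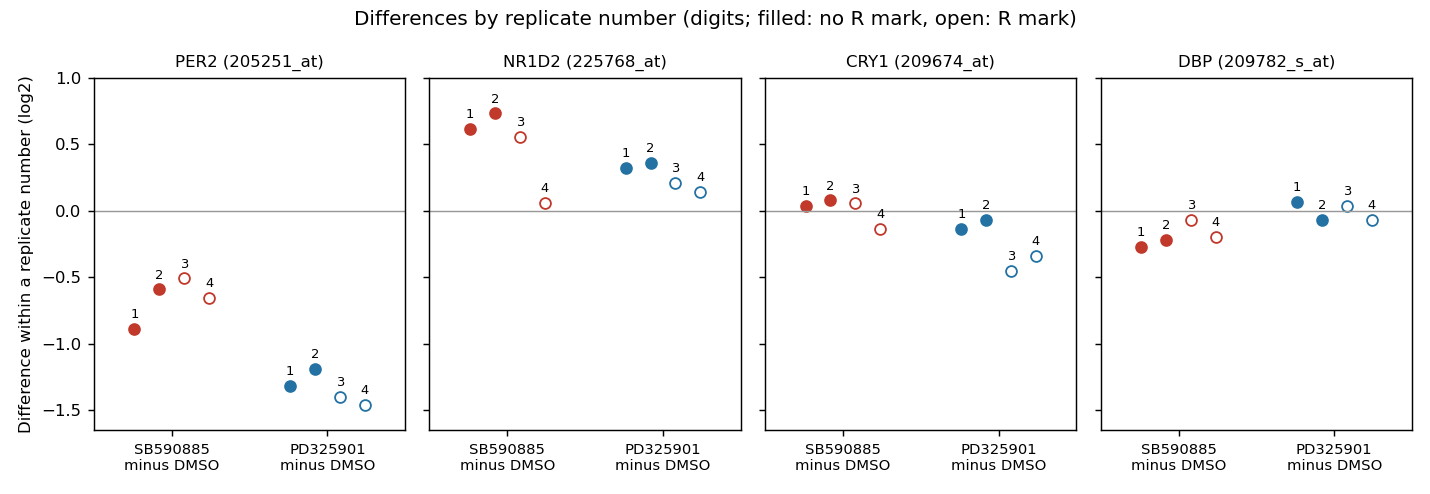
Difference within a replicate number (log2) of PER2, NR1D2, CRY1 and DBP, SB590885 minus DMSO and PD325901 minus DMSO: each point is 1 pair of arrays, labelled with its number, filled without and open with the R mark. PER2 is below 0 and NR1D2 above 0 in all 8 pairs.

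NR1D1, the REV-ERB alpha receptor, shares its 3 probe sets with THRA, and the array cannot assign their signal to 1 of the genes. On 31637_s_at, the brightest, arrays read 7.95 to 8.23 with SB590885, 8.03 to 8.45 with PD325901 and 7.92 to 8.30 with DMSO. The differences from DMSO over the 3 probe sets lay between -0.11 and -0.01 for SB590885 and between 0.00 and 0.11 for PD325901.

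DBP, the PAR bZIP output factor, read 7.13, 7.21, 7.35 and 7.22 with SB590885 on 209782_s_at, 7.47, 7.36, 7.46 and 7.35 with PD325901, and 7.41, 7.43, 7.43 and 7.41 with DMSO. All 4 SB590885 arrays were below all 4 DMSO arrays, and PD325901 overlapped DMSO. The differences were -0.19 for SB590885 and -0.01 for PD325901 against DMSO, and -0.18 for SB590885 against PD325901 (SE 0.05 each). Its second probe set, 209783_at, did not follow: its differences from DMSO were 0.02 and 0.09 (SE 0.06 each).

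Genes were called at a limma adjusted p under 0.05, with Benjamini-Hochberg adjustment over all 19775 genes. The members were selected on these 3 contrasts, so the members' counts that follow are a description and no test of them. In each comparison 1 of 8 members, PER2, was under that threshold. Of all genes, 3.28% were called for SB590885 against DMSO (1.59% higher, 1.69% lower). In PD325901 against DMSO 0.592% were called (0.086% higher, 0.506% lower), and for SB590885 against PD325901 2.82% (1.97% higher, 0.855% lower). Nothing is read from the members' counts beside these shares. With every probe set fitted on its own, 205251_at was again the 1 of 25 called in each comparison, beside 1.96%, 0.346% and 1.78% of all probe sets.

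The replicate numbers pair the arrays, and with the number as a block the counts were larger. The SEs of the 8 genes, unless said otherwise, are from the fit without the block, which leaves this pairing out. With the block they were 0.07 for PER2, 0.08 for NR1D2, 0.06 for CRY1 and CLOCK, 0.05 for BMAL1, CRY2 and DBP and 0.04 for PER3. For SB590885 against DMSO 3 of 8 members were then called (PER2 and DBP lower, NR1D2 higher), beside 18.9% of all genes. In PD325901 against DMSO 2 were called (PER2 and CRY1 lower), beside 8.14%, and for SB590885 against PD325901 5 were called (PER2, CRY1 and BMAL1 higher, CLOCK and DBP lower), beside 18.1%. In the last comparison, fitted over every probe set with the block, 31637_s_at of the NR1D1 and THRA pair was called as well, beside 12.9% of all probe sets.

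Without the block, leaving out single arrays moved these counts. The members were selected on these contrasts, so whether they pass is again a description and no test. The PER2 difference of SB590885 from DMSO missed the threshold without DMSO array 1 (-0.59), without SB590885 array 1 (-0.66) and without DMSO array 2 (-0.63), and the PER2 difference between SB590885 and PD325901 missed the threshold without SB590885 array 2 (0.63). Without SB590885 array 3, DBP was called beside PER2 in both comparisons of SB590885, at -0.23 against DMSO and -0.22 against PD325901.

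**Figure D3:**
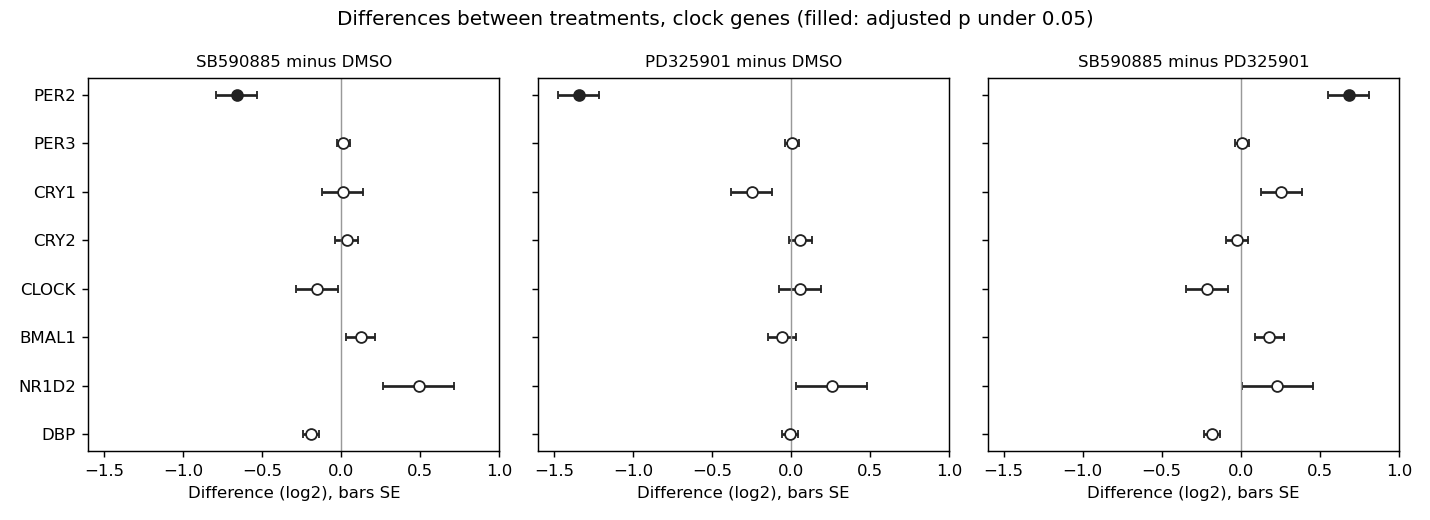
Log2 difference of the 8 clock genes between treatments, with SE bars from the limma fit over 12 arrays without the replicate block: filled points have an adjusted p under 0.05. PER2, on which the list was selected, is the 1 filled gene in each panel, at -0.66, -1.34 and 0.68, and the bars of NR1D2 are the widest, with an SE of 0.22.

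The wider clock was read from 5 lists of 79 genes, of which 74 were measured. The lists were written with earlier results of these data known, so their p-values are not tests of genes chosen independently of these data. For SB590885 against DMSO 1 of 74 passed, 1 higher and 0 lower, and 16 had an unadjusted p under 0.05. For PD325901 against DMSO 1 passed, higher, and 8 had an unadjusted p under 0.05. Between SB590885 and PD325901, 3 passed (2 higher, 1 lower), and 14 had an unadjusted p under 0.05. The median difference over the 74 genes was 0.01, -0.06 and 0.08 in that order of comparisons, and that over all genes was 0.00 in each. An unadjusted p under 0.05 was found in 13.5%, 6.80% and 12.9% of all genes. With the replicate block 21, 13 and 22 of the 74 passed, beside the 18.9%, 8.14% and 18.1% of all genes given above.

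The first list held relatives and regulators of the core clock genes: NPAS2, BMAL2, the ROR receptors, the BHLHE40 and BHLHE41 repressors and CIART. TIMELESS and TIPIN were listed with them. None of 9 measured passed in any of the 3 treatment comparisons in limma, with 1, 1 and 2 at an unadjusted p under 0.05. TIPIN, the partner of TIMELESS at the replication fork, was the lowest p of the list for SB590885 against DMSO. It averaged 10.98 ± 0.18 with SB590885, 11.09 ± 0.31 with PD325901 and 11.43 ± 0.20 with DMSO (SD, n = 4 each), differences of -0.45 and -0.34 from DMSO (SE 0.15, limma adjusted p = 0.152 and 0.689). With the replicate block 1, 2 and 1 of the 9 passed, and TIPIN was among them against DMSO for both compounds. BHLHE41 was the other gene called for PD325901 against DMSO, at -0.33, and the 1 called between the compounds, at 0.32. Its limma adjusted p was 0.0023 and 0.000823 with the block, and 0.804 and 0.461 without it (SE 0.16 each without the block).

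TEF, HLF and NFIL3 make up the D-box list with DBP: TEF and HLF activate D-box genes and NFIL3 represses them. None of the 3 passed in limma in any treatment comparison, with 1, 1 and 0 at an unadjusted p under 0.05. TEF, the DBP relative, read 7.65, 7.66, 7.71 and 7.78 with SB590885, 7.72, 7.66, 7.66 and 7.67 with PD325901, and 7.82, 7.78, 7.86 and 7.94 with DMSO. All TEF values with PD325901 were below all DMSO values, and the highest SB590885 value and the lowest DMSO value were both 7.78. Its difference from DMSO was -0.15 for SB590885 and -0.17 for PD325901 (SE 0.05 each, limma adjusted p = 0.137 and 0.216), and with the block it was called in both.

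Among kinases, phosphatases, ubiquitin enzymes and cofactors that act on clock proteins, 0 of 31 passed for SB590885 against DMSO in limma, with 9 at an unadjusted p under 0.05. USP2 passed for PD325901 against DMSO in the fit without the block. With the replicate block 11, 4 and 10 of the 31 passed, in the order of comparisons above, beside 18.9%, 8.14% and 18.1% of all genes. USP2 is a deubiquitinase that cycles in many mouse tissues and acts on clock proteins. It read 7.98, 7.85, 7.73 and 7.94 with SB590885, 8.79, 8.67, 8.56 and 8.51 with PD325901, and 8.24, 8.11, 8.09 and 8.10 with DMSO. No groups overlap, with PD325901 highest and SB590885 lowest. USP2 rose with PD325901 by 0.50 over DMSO (SE 0.07, limma adjusted p = 0.00701, higher in 4 of 4 numbers), and SB590885 was lower than PD325901 by a difference of -0.75 (SE 0.07, limma adjusted p = 0.00031). For SB590885 against DMSO the difference was -0.26 (SE 0.07, limma adjusted p = 0.0834), and with the block it was called.

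GSK3B, a kinase of PER2, CRY2 and NR1D1 proteins, was the other enzyme that passed, between the compounds. It read 10.14, 10.11, 9.76 and 9.80 with SB590885, 9.60, 9.52, 9.24 and 9.31 with PD325901, and 9.69, 9.61, 9.46 and 9.37 with DMSO. All SB590885 values were above all values of both other groups. The difference from PD325901 was 0.54 (SE 0.11, limma adjusted p = 0.0257) and that from DMSO 0.42 (SE 0.11, limma adjusted p = 0.0677). The call between the compounds was lost without any 1 of SB590885 array 1 (0.47) or array 2 (0.48) and PD325901 array 3 (0.48) or array 4 (0.50). WDR5, a cofactor that binds PER complexes, averaged 9.62 ± 0.11 with SB590885, 9.69 ± 0.23 with PD325901 and 10.00 ± 0.19 with DMSO (SD, n = 4 each), with limma adjusted p = 0.123 and 0.556 against DMSO, and with the block it was called in both.

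The list of inputs to PER transcription held CREB factors, the glucocorticoid receptor and common targets of both. TSC22D3, a glucocorticoid target also called GILZ, passed for SB590885 against DMSO, 1 of 14, and no gene passed for PD325901 in limma, where 1 had an unadjusted p under 0.05. TSC22D3 read 10.51, 10.36, 9.76 and 9.37 with SB590885, 8.33, 8.54, 8.39 and 8.72 with PD325901, and 8.51, 8.61, 8.40 and 8.71 with DMSO. The SB590885 arrays stood above all others and the PD325901 and DMSO arrays overlapped. It rose with SB590885 by 1.45 over DMSO, a ratio of 2.73 (SE 0.21, limma adjusted p = 0.00481), and by 1.51 over PD325901 (SE 0.21, limma adjusted p = 0.00271), in 4 of 4 numbers in both. With the mean of all its probe sets in place of the brightest, TSC22D3 was at 0.51 over DMSO and 0.54 over PD325901, still past the threshold. With the replicate block 6, 3 and 6 of the 14 genes of this list passed, in the order of comparisons above, beside 18.9%, 8.14% and 18.1% of all genes.

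SGK1, another glucocorticoid target, came next in this list for PD325901. It read 11.38, 11.35, 11.63 and 11.10 with SB590885, 11.28, 10.94, 10.91 and 10.18 with PD325901, and 12.38, 11.90, 12.13 and 11.39 with DMSO. As for PER2, PD325901 had the lowest mean and DMSO the highest. The difference from DMSO was -0.58 for SB590885 (limma adjusted p = 0.283) and -1.12 for PD325901 (limma adjusted p = 0.0752), with an SE of 0.24 each, and with the block both were called. NR3C1, the glucocorticoid receptor itself, averaged 9.94 ± 0.16 with SB590885, 9.66 ± 0.22 with PD325901 and 9.60 ± 0.15 with DMSO (SD, n = 4 each), with limma adjusted p = 0.154 for SB590885 against DMSO, and it was called with the block. DUSP1, a MAP kinase phosphatase gene, averaged 8.44 ± 0.59 with SB590885, 7.63 ± 0.48 with PD325901 and 7.72 ± 0.31 with DMSO (SD, n = 4 each), with limma adjusted p = 0.267 for SB590885 against DMSO, and it was called with the block.

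Of genes that cycle in many mouse tissues, the clock outputs, 0 of 17 passed in any of the 3 treatment comparisons in limma, with 1 in each at an unadjusted p under 0.05. CDKN1A, the cell cycle inhibitor p21, had the smallest p. It read 9.33, 9.40, 8.75 and 8.76 with SB590885, 9.31, 9.24, 9.17 and 9.32 with PD325901, and 8.64, 8.76, 8.68 and 8.74 with DMSO. All PD325901 values were above all DMSO values. With SB590885 arrays 1 and 2 stood high and the R-marked arrays 3 and 4 stood near DMSO. The differences from DMSO were 0.35 for SB590885 and 0.55 for PD325901 (SE 0.14 each, limma adjusted p = 0.236 and 0.140), and both were called with the block. Of the 17 genes of this list 2, 3 and 5 passed with the block, in the order of comparisons above, beside 18.9%, 8.14% and 18.1% of all genes. On R-marked arrays the CDKN1A difference of SB590885 from DMSO was 0.04 and on unmarked arrays 0.67, an interaction of -0.63 (SE 0.09, limma adjusted p = 0.127, and 0.0199 with the replicate block). For PD325901 it was 0.53 on R-marked and 0.57 on unmarked arrays (limma adjusted p of the interaction = 0.921).

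**Figure D4:**
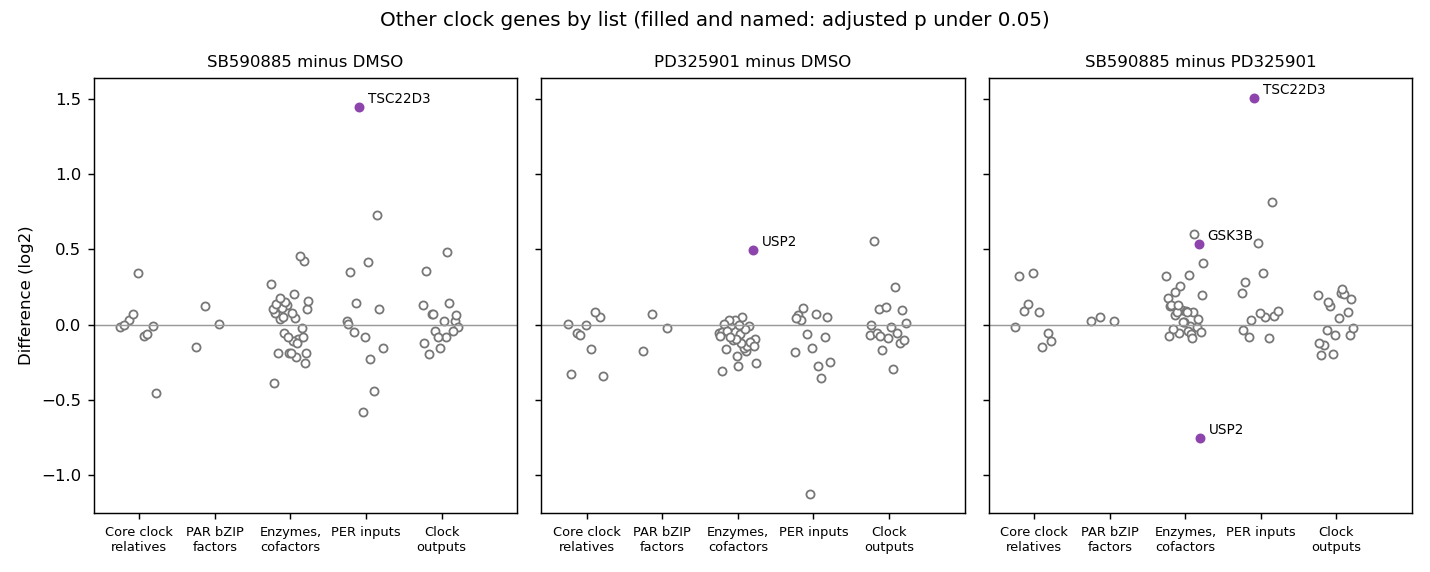
Log2 difference between treatments of the 74 other clock genes, by list (core clock relatives, PAR bZIP factors, enzymes and cofactors, inputs to PER transcription, clock outputs): each point is 1 gene, and filled, named points have an adjusted p under 0.05. TSC22D3 stands at 1.45 and 1.51, USP2 at 0.50 and -0.75, and GSK3B at 0.54.

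The R mark is a contrast that the choice of members did not use. It differs only between replicate numbers, with numbers 3 and 4 marked and numbers 1 and 2 unmarked. The random block of the fit had a consensus correlation of 0.0025, so the arrays were treated as nearly independent. The SEs and p-values of this fit therefore do not measure the spread between replicate numbers. Between R-marked and unmarked arrays 6 of the 8 members were called, 1 higher and 5 lower, beside 55.5% of all genes (23.4% higher, 32.1% lower; limma with treatment as a term and the replicate number as a random block). Of the 74 other clock genes 56 were called, 8 higher and 48 lower. NR1D2 differed by -0.55 (SE 0.08, limma adjusted p = 8.98e-05), with means of 7.55 ± 0.19 on R-marked and 8.09 ± 0.33 on unmarked arrays (SD over arrays, n = 6 arrays each). CLOCK differed by -0.32 (SE 0.05, limma adjusted p = 0.000144), and no R-marked CLOCK value reached the lowest unmarked one. CRY1 differed by -0.32 (SE 0.05, limma adjusted p = 0.000199), PER2 by -0.31 (SE 0.05, limma adjusted p = 0.00024) and BMAL1 by -0.21 (SE 0.04, limma adjusted p = 0.000465). CRY2 was higher by 0.12 (SE 0.04, limma adjusted p = 0.0324), and its call was lost without any 1 of 5 arrays, at 0.09 to 0.12. PER3 (0.04) and DBP (0.03) did not pass, with limma adjusted p = 0.277 and 0.509.

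These counts depended on the normalisation. After quantile normalisation, which gives all arrays the same distribution, 2 of the 8 members were called, NR1D2 (-0.46, limma adjusted p = 0.000728) and CRY2 (0.19, limma adjusted p = 0.0076), beside 35.1% of all genes. PER2 was then at -0.09 (limma adjusted p = 0.232), and BMAL1 turned to 0.0038 (limma adjusted p = 0.952). Of the other clock genes 30 were called. With the mean of all probe sets of a gene, all 8 members were called, PER3 (0.06) and DBP (0.08) included, beside 56.7% of all genes.

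**Figure D5:**
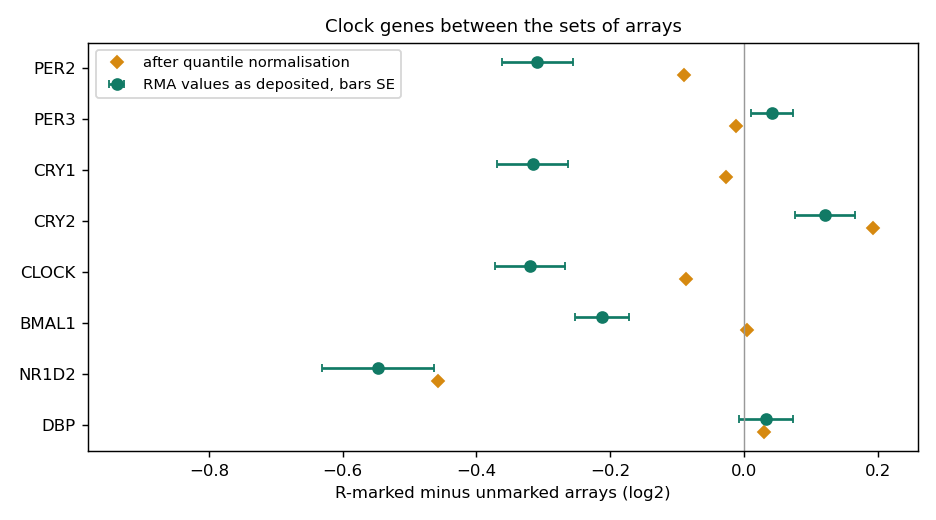
R-marked minus unmarked arrays (log2) for the 8 clock genes: circles with SE bars are the deposited RMA values and diamonds the values after quantile normalisation. The SE bars do not measure the spread between replicate numbers. NR1D2 stays at -0.55 and -0.46, CRY2 stays above 0, and PER2, CRY1, CLOCK and BMAL1 move towards 0.

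The treatment differences of the members were then compared between the array sets with an interaction term. PER2 was at -0.58 with SB590885 on R-marked arrays and -0.74 on unmarked arrays, an interaction of 0.16 (SE 0.10, limma adjusted p = 0.846). For PD325901 PER2 was at -1.43 on R-marked and -1.25 on unmarked arrays, an interaction of -0.18 (SE 0.10, limma adjusted p = 0.787). For NR1D2 the SB590885 difference was 0.31 on R-marked and 0.67 on unmarked arrays (interaction -0.37, SE 0.19, limma adjusted p = 0.794). No member passed for either compound, with 0 and 1 of 8 at an unadjusted p under 0.05, the 1 being CRY1 with PD325901, at -0.40 on R-marked and -0.10 on unmarked arrays. The same term was called in 0.00506% of all genes for SB590885 and in 0% for PD325901. With the replicate block 0 members passed as well, with 2 and 1 at an unadjusted p under 0.05. Of the 74 other clock genes 0 passed for either compound, with 9 and 4 at an unadjusted p under 0.05, where all genes had 6.63% and 5.45%. With the block CDKN1A was the 1 of 74 that passed for SB590885, beside 0.111% of all genes, and 0 passed for PD325901, beside 0%.

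The genes whose pattern was most like that of PER2 were found by Pearson correlation over the 12 arrays, on deviations from the mean of each replicate number, among 12512 genes at or above the median level. The points share 3 treatments and 4 replicate numbers, so the correlations are a description and carry no p. Highest were PRKD3, a protein kinase D (0.99), E2F3, a cell cycle transcription factor (0.99), INPP5D, the phosphatase SHIP1 (0.99), IL16, a cytokine gene (0.99), LYL1, a blood cell transcription factor (0.99), and CD53, a tetraspanin (0.99). IL16 averaged 8.38 ± 0.29 with SB590885, 7.22 ± 0.13 with PD325901 and 9.19 ± 0.24 with DMSO (SD, n = 4 each), the same order as PER2. Lowest were GOLGB1, a Golgi protein (-0.99), SYNJ1, a phosphoinositide phosphatase (-0.97), CHRNB1, a muscle acetylcholine receptor subunit (-0.97), and RWDD2A (-0.97). GOLGB1 averaged 9.23 ± 0.21 with SB590885, 9.46 ± 0.15 with PD325901 and 8.95 ± 0.21 with DMSO (SD, n = 4 each). Of the other members, CRY1 had the highest correlation with PER2 (0.76), followed by BMAL1 (0.26), DBP (0.07), PER3 (-0.10), CLOCK (-0.19), NR1D2 (-0.45) and CRY2 (-0.48).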

How the data were processed

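The 12 arrays are Affymetrix HG-U133 Plus 2.0 hybridisations of RNA from INA-6 cells, 4 each with SB590885, PD325901 and DMSO. The deposited values are log2 expression levels for each probe set, and the authors used RMA and R 3.0.1, per the submitters' processing notes. No source used here says whether all arrays were normalised together. After 62 control probe sets were left out, 54613 remained, of which 41091 had 1 gene symbol in the array annotation. A gene was represented by its probe set of highest mean, which gave 19775 genes. Contrasts were fitted with limma 3.58.1 (R 4.3.3), as group means over 12 arrays with empirical Bayes moderation and Benjamini-Hochberg adjustment over all genes at 0.05. The fits were run on simulated arrays with known changes. The condition set there concerned the mean error of the recovered differences and not the error rate of the calls. The simulated treatment comparisons held no R mark effect. The number of arrays limits the precision.

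The members and the gene lists were chosen with earlier results of these data known. Of the lists, the text names genes that passed and up to 4 per list with the smallest p otherwise; for the R mark the list genes are given as counts. The replicate numbers of the labels pair the arrays: deviations from group means of same-numbered arrays correlated at 0.544 to 0.913, and 12 of 12 arrays had their best partner at their own number, while pairs of different numbers reached 0.646 within a set of equal R mark and lay below 0 across sets. The R mark fit used the number as a random block, with a consensus correlation of 0.0025. It thus treated the 12 arrays as nearly independent, and its p-values do not measure the spread between replicate numbers. Alternatives were the replicate block, the R mark as a term, each array set alone, median centring, quantile normalisation, a filter on low genes, the mean of all probe sets, each probe set alone, a variance trend, 2 groups alone and leaving out arrays. Some genes are not reported here.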

Additional observations from a re-analysis of the deposited data

Results flagged for a closer look

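In 75 groups of 4 arrays (25 probe sets in 3 treatments), 3 had 1 array far from the other 3 by Dixon's gap test, which chance alone gives in about 1 in 20 groups. On the CLOCK probe set 204980_at, PD325901 array 3 was highest at 7.80, with the other 3 at 7.65 to 7.67. On the PER3 probe set 1555131_a_at, PD325901 array 2 was lowest at 6.87, with the others at 6.98 to 6.99. On the PER3 probe set 1569701_at, DMSO array 3 was lowest at 6.11, with the others at 6.15 to 6.16. None of these 3 probe sets was called between treatments.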

How the results depend on the processing

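Over the alternatives run, the PER2 difference lay between -0.74 and -0.37 for SB590885 against DMSO, -1.43 and -0.72 for PD325901 against DMSO, and 0.35 and 0.85 for SB590885 against PD325901, where the smallest values came from averaging both PER2 probe sets. Leaving out 1 array at a time gave -0.72 to -0.59, -1.43 to -1.26 and 0.60 to 0.76. The cause of the changes below was not tested. Calls of members between treatments are a description and no test, since the members were selected on these contrasts.

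Without the 3 arrays of number 2, an alternative chosen after seeing the data, PER2 missed the threshold for SB590885 against DMSO (-0.69) and against PD325901 (0.71), TSC22D3 (1.34) and USP2 (0.47) missed it against DMSO, and 0 members and 0 other clock genes were called in SB590885 against DMSO, 0 other clock genes in PD325901 against DMSO and 0 members in SB590885 against PD325901. This leaves 9 arrays, and 0.394%, 0.319% and 0.91% of all genes were called. PER2 between the compounds also missed it with arrays centred on their medians (0.68) and with those 2 groups alone (0.68), where 0 members were called beside 1.55% and 1.14% of all genes.

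Counts of members and of other clock genes called are given beside the share of all genes called under the same setting. For SB590885 against DMSO, 1 of 8 members and 1 of 74 other genes (3.28% of all) became 3 and 21 with the replicate block (18.9%), 3 and 20 with a term for the R mark (16.8%), 3 and 18 in unmarked arrays alone (13.3%), 2 and 8 in R-marked arrays alone (5.39%), and 2 and 11 after quantile normalisation (8.26%). Other clock genes were 2 with the mean of all probe sets (3.41%) and 4 with every probe set (1.96%), and members 0 to 2 without single arrays (1.24% to 3.49%).

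For PD325901 against DMSO, 1 and 1 (0.592%) became 2 and 13 with the block (8.14%), 2 and 12 with that term (6.52%), 1 and 3 in unmarked arrays (0.941%), 2 and 13 in R-marked arrays (5.46%), and 1 and 3 after quantile normalisation (1.76%). Other clock genes were 2 with a variance trend (0.531%), 2 with those groups alone (0.399%) and 1 to 2 without single arrays (0.364% to 0.637%).

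For SB590885 against PD325901, 1 and 3 (2.82%) became 5 and 22 with the block (18.1%), 5 and 17 with that term (16.1%), 2 and 16 in unmarked arrays (11.9%), 3 and 15 in R-marked arrays (8.95%), and 4 and 8 after quantile normalisation (7.86%). Members were 0 to 2 without single arrays (1.42% to 2.57%). The block changed no call of the interaction terms of members.

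For the R mark, quantile normalisation gave 2 members and 30 other clock genes (35.1% of all genes), PER2 at -0.0898 and BMAL1 reversed at 0.0038. The mean of all probe sets gave 8 members in place of 6, and the other alternatives run gave 5 or 6. With CACGTG alone as the E-box, 2 member windows matched in place of 7. Doses and times are unknown and PER1 and NR1D1 have shared probe sets alone.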
